A study of Mus musculus with 8 samples.

Results

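The Period, Cryptochrome and other repressors of the circadian clock were followed here in WT and HNF6KO mouse liver. The group holds 10 genes (Per1, Per2, Per3, Cry1, Cry2, Bhlhe40, Bhlhe41, Ciart, Csnk1d and Csnk1e), taken by symbol from the platform annotation, out of 19540 genes measured. All 10 were measured, and the brightest of a gene's probe sets by mean over the 8 arrays stood for it. Of the 8 Affymetrix arrays, 4 carried wild-type (WT) liver RNA and 4 carried RNA of livers labelled HNF6KO, described by the submitters as depleted of HNF6, the transcription factor that Onecut1 encodes. Both groups were male mice of the strain written C57B/6, aged 12 weeks, fed chow in a daily light and dark cycle, untreated and sampled at ZT10 (5 pm), that is 10 h after lights on. The sources used here do not give how HNF6 was depleted, in which cells, whether the WT mice carry an allele of the cross, or whether each array stands for 1 animal. The p-values therefore measure the spread between these arrays, which may be technical.

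In the mammalian clock the activators CLOCK and BMAL1 bind E-box sequences and switch on the Per and Cry genes. PER and CRY proteins then gather with casein kinase 1, enter the nucleus and shut off CLOCK and BMAL1, which closes a loop of about a day. The basic helix-loop-helix proteins DEC1 (Bhlhe40) and DEC2 (Bhlhe41) repress from the same E-boxes, and CHRONO (Ciart) binds BMAL1 and represses it as well. Csnk1d and Csnk1e encode the delta and epsilon forms of casein kinase 1, which phosphorylate PER proteins and set how long they last. Liver carries a strong clock of this kind, and most of these transcripts rise and fall each day, so a value at 1 clock time is a point on a moving curve.

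The RefSeq promoter table, assembly GRCm38.p6, holds 11 windows for 7 of the 10 genes and none for Per2, Bhlhe40 or Csnk1d. Each window has 300 bases, from 250 before to 50 after an annotated start. The stretches printed here carry the clock motifs of 5 genes whose values spread widely across the arrays, with 25 bases on either side of the motifs. They are written 5′ to 3′ on the gene's own strand, with capitals marking the E-box CACGTG, the related E′-box CACGTT (read on either strand) and the D-box TTANGTAA, the site of factors such as DBP and its repressor NFIL3.
Ciart, chr3:95882242-95882369, minus strand: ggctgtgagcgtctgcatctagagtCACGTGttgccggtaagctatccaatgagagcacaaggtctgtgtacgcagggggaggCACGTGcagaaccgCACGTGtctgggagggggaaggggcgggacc
Per1, chr11:69098758-69098813, plus strand: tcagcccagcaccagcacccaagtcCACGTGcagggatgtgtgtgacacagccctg
Cry1, chr10:85185084-85185158, minus strand: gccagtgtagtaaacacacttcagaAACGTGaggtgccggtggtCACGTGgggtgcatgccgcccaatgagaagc
Bhlhe41, chr6:145865543-145865598, minus strand: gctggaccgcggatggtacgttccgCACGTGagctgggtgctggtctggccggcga
Per3, chr4:151044791-151044895, minus strand: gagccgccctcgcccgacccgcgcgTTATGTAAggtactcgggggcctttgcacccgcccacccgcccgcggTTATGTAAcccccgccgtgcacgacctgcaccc

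Ciart held 3 E-boxes, which begin at positions -116, -58 and -44, counted in bases from the start. Per1 held 1 E-box at -166 in the first of its 2 windows, Bhlhe41 held 1 at -153, and Cry1 held 1 at -60 beside an E′-box at -79. Per3 had no E-box in its window and instead had 2 D-boxes, at -205 and -158. Cry2 held an E′-box at -166, and the windows of Csnk1e held neither kind of E-box. Over all 32851 windows of this length in the table, 7.15% held CACGTG, 4.68% held CACGTT and 2.32% held TTANGTAA on either strand. The other motifs searched were the receptor core AGGTCA (16.3% of all windows), the cAMP element TGACGTCA (1.79%), its half-site TGACG (20.8%, overlapping the full element where that is present), and the HNF6 cores ATCGAT (0.925%) and ATTGAT (7.54%). AGGTCA was found in Per1 at -137. TGACG was found in both windows of Per1, in those of Cry1 and Cry2 and in 2 of the 4 windows of Csnk1e, and the other 3 motifs were not found in any of these windows. A match says only that these letters stand in the window.

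**Figure D1:**
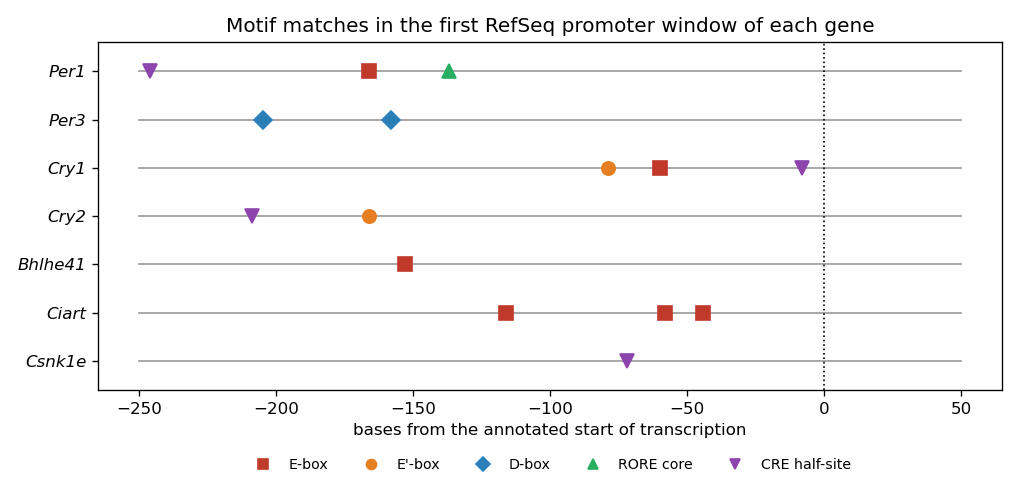
Motif matches in the first promoter window of 7 clock repressors, as the distance of each motif's first base from the annotated start of transcription in bases. Ciart has 3 E-boxes close to its start, Per1, Cry1 and Bhlhe41 have 1 each, and Per3 has 2 D-boxes.

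The labels were checked first on Onecut1. Its WT arrays ran from 9.87 to 10.52 and its HNF6KO arrays from 8.67 to 9.32, so it fell (log2 change -1.32 ± 0.18 SE, limma, adjusted p = 0.0273). Onecut1 did not pass in the fits without WT array 1, 3 or 4 or without HNF6KO array 3 or 4 (adjusted p = 0.0633 to 0.0954), nor within arrays 1 and 2 alone (-0.83, adjusted p = 0.171). It passed within arrays 3 and 4 alone (-1.80, adjusted p = 0.00140), and every HNF6KO array stayed below every WT array. Whether this probe set lies in a deleted part of Onecut1 is not stated in the labels. All values here are log2 expression as deposited, changes are HNF6KO minus WT on that scale, and p-values are adjusted over all 19540 genes with a threshold of 0.05. Levels of different genes come from different probe sets and are not set against each other. Hepatocyte markers such as Alb stood near the top of the scale on every array (13.96 to 14.11), and the mean of 8 measured hepatocyte markers ran from 13.37 to 13.46 in WT and from 13.37 to 13.51 in HNF6KO.

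None of the 10 repressors passed the test between HNF6KO and WT, where 0.399% of all genes did. At an unadjusted p of 0.05, 1 of 10 (Bhlhe41) lay below the threshold, beside 9.51% of all genes, and the same gene was the 1 of 10 whose groups did not overlap, beside 5.67% of all genes. The median log2 change of the 10 was 0.05, with 8 above 0 and 2 below, and that of all genes was -0.01, with 42.6% above 0.

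**Figure D2:**
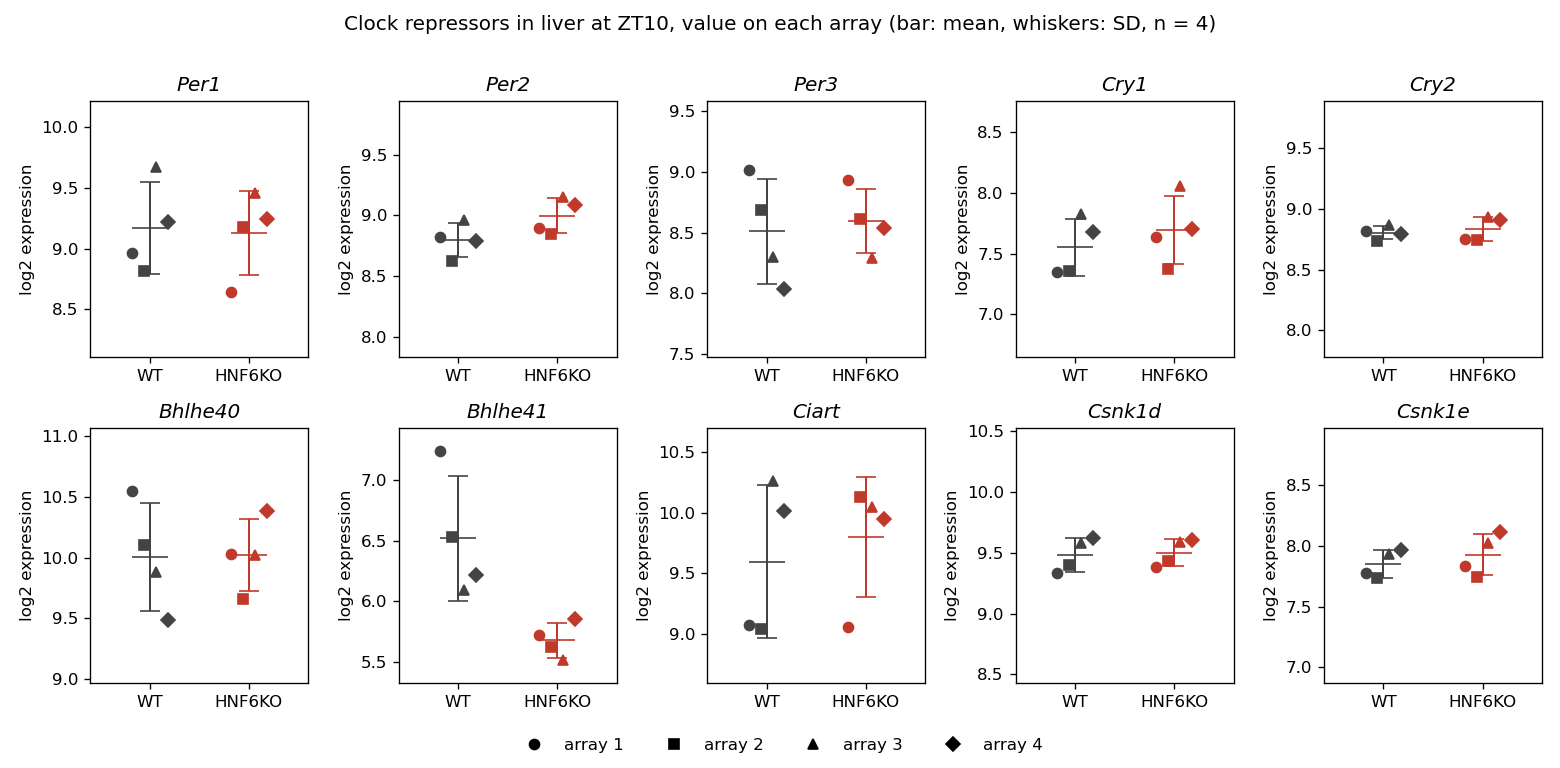
Log2 expression of each clock repressor on every array, by genotype. Marker shape gives the array number, the bar is the mean and the whiskers are the SD of 4 arrays, and every panel spans the same height. Bhlhe41 is the 1 gene whose groups do not overlap, and in Per1, Cry1, Csnk1d and Csnk1e arrays 3 and 4 lie above arrays 1 and 2.

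The 3 Period genes, which encode the scaffold of the repressor complex, did not pass. Values are given in the order of array numbers 1 to 4. Per1, which hormones such as glucocorticoids also induce, read 8.97, 8.81, 9.67 and 9.22 in WT and 8.65, 9.18, 9.46 and 9.24 in HNF6KO. The groups overlap over almost their whole range, and the highest reading is that of WT array 3 and the lowest that of HNF6KO array 1. The log2 change of Per1 was -0.04 ± 0.21 (SE, limma, adjusted p = 0.981), with a 95% interval of -0.52 to 0.44. Differences of up to 1.43-fold downward or 1.36-fold upward lie within that interval.

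Per2 read 8.83, 8.62, 8.96 and 8.79 on the WT arrays and 8.90, 8.85, 9.15 and 9.08 on the HNF6KO arrays. HNF6KO arrays 3 and 4 lie above every WT array, and the other two lie among them. The log2 change was 0.20 ± 0.09 (SE, limma, adjusted p = 0.542), with a 95% interval of -0.01 to 0.40, and after Bhlhe41 it had the smallest unadjusted p of the 10 (limma, 0.0586). Per3, a Period gene that is not needed for the central clock to run, read 9.02, 8.69, 8.30 and 8.04 in WT and 8.93, 8.61, 8.29 and 8.54 in HNF6KO. The groups overlap, with array 1 the highest in both. Its log2 change was 0.08 ± 0.21 (SE, limma, adjusted p = 0.959), with a 95% interval of -0.39 to 0.56.

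The Cryptochrome genes encode the proteins that bind CLOCK and BMAL1 directly and do most of the repression. Cry1, the strong repressor of the later part of the cycle, read 7.35, 7.36, 7.82 and 7.68 in WT and 7.63, 7.37, 8.06 and 7.70 in HNF6KO. The groups overlap, and array 3 is the highest in both. The log2 change of Cry1 was 0.14 ± 0.16 (SE, limma, adjusted p = 0.860). Cry2 was the steadiest of the 10 genes, at 8.82, 8.73, 8.87 and 8.79 in WT and 8.75, 8.74, 8.93 and 8.91 in HNF6KO. Its log2 change was 0.03 ± 0.06 (SE, limma, adjusted p = 0.947), and the 95% interval of -0.11 to 0.17 leaves room for at most a 1.08-fold lower or 1.12-fold higher level. The 95% interval of Cry1 was wider, at -0.21 to 0.49.

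Bhlhe41, which encodes the E-box repressor DEC2, gave the largest difference of the 10 genes. It read 7.24, 6.53, 6.10 and 6.22 in WT and 5.72, 5.63, 5.52 and 5.86 in HNF6KO. Every HNF6KO array lies below every WT array, with the closest pair at 5.86 and 6.10, and WT array 1 stands well above the other WT arrays. The means were 6.52 ± 0.51 in WT and 5.68 ± 0.14 in HNF6KO (SD, n = 4). The log2 change was -0.84 ± 0.22 (SE), with a 95% interval of -1.34 to -0.34 for this gene on its own, and it did not pass over all genes (limma, adjusted p = 0.222). Its unadjusted p of 0.00428 ranked 376 among 19540 genes. The signal was dim, at the 40.7th percentile of genes in WT and the 23.6th in HNF6KO. Without WT array 1 the log2 change was -0.60 (adjusted p = 0.157), and over the 8 fits that left out 1 array each it ran from -0.98 to -0.60. Within arrays 1 and 2 it was -1.21 (adjusted p = 0.209) and within arrays 3 and 4 it was -0.47 (adjusted p = 0.169).

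Its paralog Bhlhe40, which encodes DEC1, read 10.55, 10.10, 9.88 and 9.49 in WT and 10.03, 9.66, 10.02 and 10.38 in HNF6KO. The group means were nearly the same, with SDs of 0.44 in WT and 0.29 in HNF6KO (n = 4) and a log2 change of 0.02 ± 0.22 (SE, limma, adjusted p = 0.991). Within that mean the arrays ran in opposite directions. Among arrays 1 and 2 both HNF6KO values lie below both WT values (log2 difference of means -0.48), and among arrays 3 and 4 both lie above (0.52). Neither difference passed in the fits within those arrays (limma, adjusted p = 0.505 and 0.228), and the crossing itself was not tested.

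Whether close relatives differed in their response was tested on the log2 difference between both genes on each array, over the 70 ways to assign 8 arrays to 4 and 4. Bhlhe41 minus Bhlhe40 was -3.31, -3.57, -3.79 and -3.27 in WT and -4.31, -4.03, -4.50 and -4.53 in HNF6KO. All 4 HNF6KO values lie below all 4 WT values, so the change of Bhlhe41 was lower than that of Bhlhe40 by a mean of 0.857 (HNF6KO minus WT, -0.857). The two-sided exact permutation test gave p = 0.0286, the lowest it can reach with 4 arrays a group. After adjustment over the 6 pairs tested it was 0.171. With only 1 pair at that lowest p, the adjusted p could not be lower, so it could not decide whether this pair differed. The other 5 pairs (Per1 with Per2, Per1 with Per3, Per2 with Per3, Cry1 with Cry2, and Csnk1d with Csnk1e) differed in their changes by -0.23 to 0.11, with exact permutation p from 0.343 to 0.771 and adjusted p from 0.686 to 0.771.

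Ciart, which encodes CHRONO, varied most among the arrays. It read 9.07, 9.04, 10.26 and 10.01 on the WT arrays and 9.06, 10.13, 10.05 and 9.95 on the HNF6KO arrays. The values fall near 2 levels, about 9.0 on WT arrays 1 and 2 and HNF6KO array 1, and about 10 on the other five, and both genotypes have arrays at each level. The log2 change was 0.20 ± 0.33 (SE, limma, adjusted p = 0.915), with a 95% interval of -0.54 to 0.95. A second, dimmer Ciart probe set read 8.64, 8.82, 9.95 and 9.69 in WT and 8.51, 9.57, 9.69 and 9.60 in HNF6KO, with the same arrays low, and its log2 change was 0.07 ± 0.35 (SE, limma, adjusted p = 0.979 over all probe sets).

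The casein kinase genes did not pass either. Csnk1d read 9.33, 9.40, 9.58 and 9.62 in WT and 9.38, 9.43, 9.59 and 9.60 in HNF6KO, and each HNF6KO array lies within 0.05 of the WT array of the same number. Its log2 change was 0.02 ± 0.08 (SE, limma, adjusted p = 0.979), with a 95% interval of -0.17 to 0.20. Csnk1e read 7.77, 7.73, 7.93 and 7.96 in WT and 7.83, 7.75, 8.02 and 8.11 in HNF6KO, a log2 change of 0.08 ± 0.09 (SE, limma, adjusted p = 0.875).

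**Figure D3:**
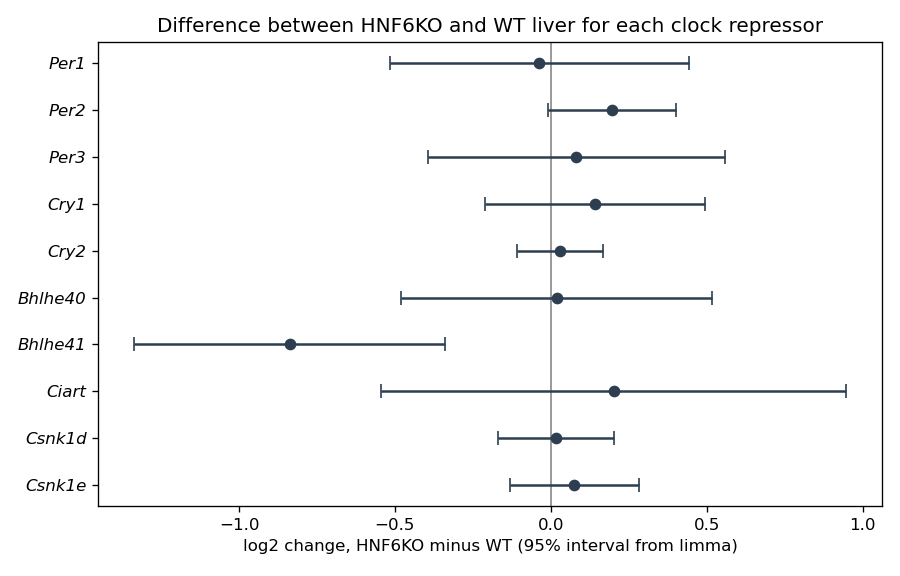
Log2 change (HNF6KO minus WT) of each clock repressor with its 95% interval from limma, 4 arrays per group. The interval of Bhlhe41 runs from -1.34 to -0.34 and those of the other nine include 0, with the widest for Ciart and the narrowest for Cry2.

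Most of the repressors differed more between arrays of 1 genotype than between genotypes, and much of that spread followed the array number in the sample titles. In 5 of the 10 genes the 4 arrays numbered 3 and 4 did not overlap with the 4 numbered 1 and 2, over both genotypes, beside 13.9% of all genes. Per1, Cry1, Csnk1d and Csnk1e were higher on arrays 3 and 4, and Per3 was lower. Among lists described below, the same lack of overlap held for 9 of 10 Kupffer cell markers and 5 of 8 sinusoidal endothelial markers. It held for 6 of 11 heat-shock and temperature-responsive genes and 7 of 22 kinases, phosphatases and ubiquitin ligases. Of 7 clock activators and nuclear receptors it held for 0, and of 18 binding partners for 1. Arrays 3 and 4 minus arrays 1 and 2 came to 0.56 in WT and 0.44 in HNF6KO for Per1, 0.40 and 0.37 for Cry1, and -0.68 and -0.36 for Per3. For Ciart they came to 1.08 and 0.41, the second set apart by HNF6KO array 2, which lay with arrays 3 and 4. The difference by number was larger than that by genotype in 9 of the 10 genes, all but Bhlhe41, and in 60.8% of all genes. For Per2 the difference by number and that by genotype were almost equal (0.198 and 0.197). For Bhlhe40 the difference by number, -0.14, averages opposite moves of -0.64 in WT and 0.35 in HNF6KO. These differences are descriptions and carry no test, and the labels do not state what the numbers stand for.

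The 10 genes did not all move the same way by number. Both genotypes were higher on arrays 3 and 4 for 7 genes and lower for 1 (Per3). Bhlhe40 had -0.64 in WT and 0.35 in HNF6KO, and Bhlhe41 had -0.73 in WT and 0.01 in HNF6KO. Of the genes with E-boxes printed above, Ciart, Per1 and Cry1 were higher on arrays 3 and 4 in both genotypes. Bhlhe41 was lower there in WT and nearly equal in HNF6KO. A link between the motifs and these differences was not tested. The spread within groups (pooled SD) stood at the 97.1st percentile of all genes for Per1 and the 97.03rd for Per3. It stood at the 97.4th for both Bhlhe40 and Bhlhe41 and the 99.1st for Ciart. It stood at the 93.5th for Cry1, the 73.6th for Csnk1e, the 72.8th for Per2 and the 65.2nd for Csnk1d. For Cry2 it stood at the 32.5th.

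**Figure D4:**
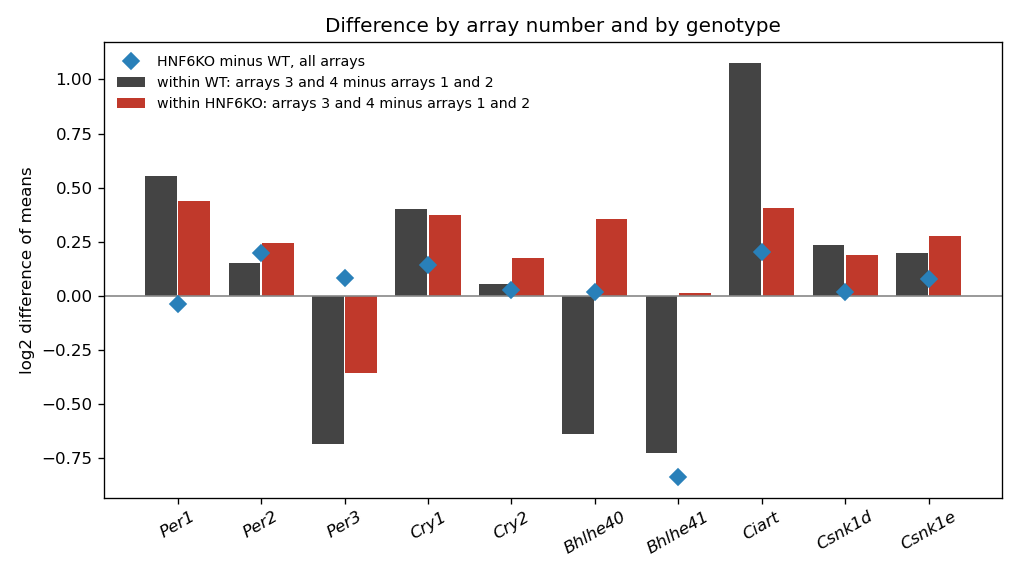
Log2 difference between the mean of arrays 3 and 4 and the mean of arrays 1 and 2 within WT (grey bars) and within HNF6KO (red bars), beside the difference between HNF6KO and WT over all arrays (blue diamonds), for each clock repressor. Ciart, Per1 and Per3 have bars of 0.36 to 1.08 in size and diamonds of at most 0.20 in size, and Bhlhe41 is the 1 gene whose diamond lies farther from 0 than the mean of its bars.

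Means of several marker lists also followed the array number, that of hepatocytes included. The hepatocyte mean ran from 13.37 to 13.42 on arrays 1 and 2 and from 13.44 to 13.51 on arrays 3 and 4. Of its 8 markers, 1 did not overlap by number on its own. The stellate cell mean overlapped by number, at 8.16 to 8.44 and 8.38 to 8.55. The mean of all 10 Kupffer cell markers ran from 7.71 to 8.59 on arrays 1 and 2 and from 8.86 to 9.42 on arrays 3 and 4, and that of 8 sinusoidal endothelial markers from 8.04 to 8.52 and from 8.68 to 8.99. By genotype the Kupffer mean ran from 7.71 to 9.004 in WT and from 7.77 to 9.42 in HNF6KO, the endothelial mean from 8.04 to 8.85 and from 8.12 to 8.99, and the mean of 8 stellate cell markers from 8.16 to 8.52 and from 8.21 to 8.55. The mean of the 2 red cell markers measured, of 6 listed, did not overlap between genotypes, at 8.32 to 8.48 in WT and 7.61 to 8.20 in HNF6KO. Of these, Alas2, the heme-synthesis enzyme of red cell precursors, read 9.70, 9.82, 10.02 and 9.70 in WT and 9.32, 9.09, 8.39 and 8.53 in HNF6KO. Every HNF6KO array lies below every WT array, as for Bhlhe41, and Alas2 did not pass without the array number as a term (log2 change -0.98 ± 0.19 SE, limma, adjusted p = 0.0925) and passed with it (adjusted p = 0.0296). Slc4a1, the red cell anion exchanger, stood at -0.03 ± 0.08 (log2 change, SE, adjusted p = 0.958). Means of biliary markers (6.19 to 6.29) and lymphocyte markers (5.81 to 5.96) lay close together on all arrays. The part of these markers in the spread of the clock repressors or in the difference of Bhlhe41 was not tested, and in whole liver a changed number of cells and a changed level per cell cannot be told apart. With the array number (1 and 2 against 3 and 4) as a term in the fit, none of the 10 repressors passed, and Bhlhe41 had adjusted p = 0.0815 (limma). That grouping of numbers is not given in the labels and matches the separation seen in these same values. With it 245 of all genes passed, beside 78 without it, so a pass gained this way is not independent support.

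The partners of these repressors were described from lists of the clock pathway. Counts at an unadjusted p of 0.05 in each list stand beside 9.51% of all genes. Of 9 activators and nuclear receptors listed, 7 were measured and none passed, 2 of them below 0 at an unadjusted p of 0.05, with a median log2 change of -0.02. The lowest p was that of Clock, the activator that PER and CRY proteins silence, which ran from 9.81 to 10.13 in WT and from 9.39 to 9.75 in HNF6KO. All 4 HNF6KO arrays lie below the WT arrays, and Clock did not pass without the array number as a term (log2 change -0.40 ± 0.10, adjusted p = 0.184) and passed with it (adjusted p = 0.0143). That term matches a separation seen in these same values, and with it 245 of all genes passed, beside 78 without it. Arntl, which encodes BMAL1, was close to equal in both groups (0.03 ± 0.07, adjusted p = 0.949).

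Nr1d1 encodes REV-ERBα, which represses Arntl and Cry1 among others. It read 10.92, 10.99, 10.26 and 9.55 in WT and 10.13, 9.42, 9.40 and 9.71 in HNF6KO, and the groups overlap (log2 change -0.76 ± 0.31, limma, adjusted p = 0.477). Its WT arrays 1 and 2 are the highest of all 8, as they are for Bhlhe41.

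Among 10 D-box factors and direct E-box outputs none passed, with 2 above and 2 below 0 at an unadjusted p of 0.05 and a median log2 change of 0.03. The lowest p was that of Nampt, an NAD-making enzyme driven by CLOCK and BMAL1, at 9.71, 9.33, 9.76 and 9.59 in WT and 9.97, 10.35, 10.41 and 10.67 in HNF6KO. Every HNF6KO array lies above every WT array, with a log2 change of 0.75 ± 0.15 (SE, limma, adjusted p = 0.0891, and 0.0235 with the array number as a term). The limit given for that term at Clock holds for Nampt too. The D-box repressor gene Nfil3 stood at -0.20 ± 0.08 (log2 change, adjusted p = 0.450) and the D-box activator gene Dbp at -0.30 ± 0.13 (adjusted p = 0.497).

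Of 25 kinases, phosphatases and ubiquitin ligases that act on PER and CRY, 22 were measured and none passed, with 1 above and 2 below 0 at an unadjusted p of 0.05 (median log2 change -0.03). Skp1, a core subunit of the SCF ligases that mark PER and CRY for destruction, stood at 0.30 ± 0.09 (log2 change, limma, adjusted p = 0.293), Csnk2a2, a catalytic subunit of casein kinase 2, at -0.24 ± 0.09 (adjusted p = 0.434) and the kinase Dyrk1a at -0.22 ± 0.09 (adjusted p = 0.482). Of 21 binding partners of the repressor complex, 18 were measured and none passed (median -0.01). At an unadjusted p of 0.05, 3 of them lay above and 3 below 0, beside 9.51% of all genes. The lowest p there was that of the protein kinase C gene Prkca (-0.32 ± 0.07, adjusted p = 0.159), followed by the deacetylase Hdac2 (0.17 ± 0.05, adjusted p = 0.331) and the remodeller Chd4 (-0.17 ± 0.05, adjusted p = 0.342).

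Signals known to induce Per1 and Per2 directly were read from their other target genes. Counts at an unadjusted p of 0.05 here too stand beside 9.51% of all genes. None of 12 measured glucocorticoid-responsive genes passed (median log2 change 0.04, 1 below 0 at an unadjusted p of 0.05). The glucocorticoid target Klf9 had the lowest p (-0.35 ± 0.15, limma, adjusted p = 0.512). Ddit4 (0.46 ± 0.38, adjusted p = 0.785) and the phosphatase gene Dusp1 (0.27 ± 0.28, adjusted p = 0.856) came next, with wide errors. None of 11 heat-shock and temperature-responsive genes passed, with 10 of 11 above 0 beside 42.6% of all genes, 2 of the 10 at an unadjusted p of 0.05, and a median log2 change of 0.14. The lowest p values were those of the mitochondrial chaperonin genes Hspd1 (0.18 ± 0.05, adjusted p = 0.216) and Hspe1 (0.22 ± 0.07, adjusted p = 0.317) and of Hspa1a (0.16 ± 0.08, adjusted p = 0.584). None of 15 cAMP and immediate-early genes passed (median -0.02, 1 below 0 at an unadjusted p of 0.05). Nr4a2 (-0.22 ± 0.07, adjusted p = 0.346), the coactivator gene Ppargc1a (0.44 ± 0.20, adjusted p = 0.538) and Ier2 (0.14 ± 0.09, adjusted p = 0.704) had the lowest p. In other lists, 7 of 12 glucocorticoid-responsive genes and 6 of 15 cAMP and immediate-early genes lay above 0. So did 10 of 10 Kupffer cell markers and 8 of 8 sinusoidal endothelial markers.

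The genes whose values were most like those of 8 repressors (all but the casein kinases) across the 8 arrays were sought among the other 19539 genes by Pearson's r. The 3 likest of each had r from 0.950 to 0.984, none of these 24 was itself a clock repressor of the group, and none passed the test between genotypes. For Per3 they were the glucagon receptor gene Gcgr (0.983), Fn3k (0.978) and Tprkb (0.971). For Per2 they were Rmdn1 (0.968), the lysosomal protease gene Ctsd (0.968) and the triglyceride-forming acyltransferase gene Dgat2 (0.954). For Per1 the likest was the kinase gene Mknk2 (0.974), for Ciart it was Shld2 (0.981), and for Bhlhe41 it was Cspg5 (0.980). For Cry1 it was Thbd (0.980), for Cry2 Mapre2 (0.984) and for Bhlhe40 Ssmem1 (0.983). With group means subtracted first, the likest became Efhd2 for Per1 (0.985), Ptpn12 for Per2 (0.988) and Spata7 for Bhlhe41 (0.980). Shld2 stayed the likest for Ciart (0.992). Each r was picked as the highest of 19539 over arrays that share the separation by number, so it carries no p and describes these 8 arrays alone.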

How the data were processed

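Total RNA of mouse liver was hybridised to 8 Affymetrix arrays after Trizol extraction and biotin labelling, per the labels' protocols. One table was deposited by the authors, with 22725 probe sets on 8 arrays. The deposited values run from 3.69 to 14.1 and are read here as log2 expression. The sources used here do not give the base of the logarithm or how the authors corrected background, normalized and summarised, so a shift shared by most genes could have been removed. No value was missing, and none was changed before the tests. The number of arrays limits the precision of each value.

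The platform annotation paired 21113 probe sets with 1 symbol, which gave 19540 genes by the brightest probe set. Probe sets with several symbols (43) or none (1569) were left out. HNF6KO and WT (4 arrays each) were compared in R 4.3.3 with limma 3.58.1 (lmFit, eBayes, no trend) over all genes, with Benjamini-Hochberg adjustment, and every adjusted p of a gene comes from that fit unless another is named beside it. Pairs of related genes were compared by exact permutation of arrays. The limma fit was also tested on simulated data.

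The members and lists were chosen with earlier results of these data known. Named genes are the 10 members, Onecut1, up to 3 genes of smallest p per list, any past the threshold, and the likest genes. Alternatives covered normalization, variance model, dim genes, probe set choice, array number, threshold and each array left out.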

Additional observations from a re-analysis of the deposited data

Results flagged for a closer look

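Ciart on HNF6KO array 1, at 9.06, lay far below the other HNF6KO arrays (9.95 to 10.13). Its gap to the nearest was 0.834 of the group's range, above Dixon's 95% critical value for 4 values. Of 20 groups of 4 examined (10 genes in 2 genotypes) this was the 1 that stood out, and chance gives about 1 in 20. WT arrays 1 and 2 read 9.07 and 9.04, and the dimmer Ciart probe set was also low on HNF6KO array 1 (8.51).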

How the results depend on the processing

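The count of repressors past the threshold stayed at 0 in limma under every alternative run, where 1 lay below an unadjusted p of 0.05 in the fit reported. Per2, at 0.0586 in that fit, moved with the processing. Its unadjusted limma p was 0.0124 with quantile normalization, 0.0184 with cyclic loess and 0.00866 with array weights. It was 0.0114 with the replicate block, 0.0131 with the split of numbers and 0.0263 within arrays 3 and 4. With 1 array left out it ran from 0.0264 to 0.161, and its lowest adjusted p in any fit was 0.139. The filter on dim genes took out Bhlhe41. Its change kept its direction and did not pass in any other alternative, with adjusted p from 0.0815 to 0.501. The count over all genes, 78, was 202 with array quality weights, 125 with the array number as a replicate block, 245 with arrays 1 and 2 against 3 and 4 as a term, 22 within arrays 1 and 2, 162 at an adjusted p of 0.1, and 16 to 79 when each array was left out. Same-numbered arrays correlated in their deviations at 0.439, 0.167, 0.506 and 0.0233 for numbers 1 to 4. Arrays numbered 1 and 3 correlated best with their own number in both genotypes, and those numbered 2 and 4 did not. Whether the numbers pair the arrays is not stated in the labels and was not tested. Small changes turned sign: with array weights, Per1 to 0.18 and Per3 to -0.11. Within arrays 1 and 2, Per1 came to 0.0211, Per3 to -0.0814, Cry2 to -0.0305 and Bhlhe40 to -0.48. Within arrays 3 and 4, Ciart came to -0.13 and Csnk1d to -0.00726. With each array left out in turn, the changes that turned sign ran from -0.15 to 0.13 (Per1), -0.0759 to 0.25 (Per3), -0.00448 to 0.0588 (Cry2), -0.15 to 0.20 (Bhlhe40) and -0.0339 to 0.0627 (Csnk1d). Those of Ciart (0.0172 to 0.45), Cry1 (0.0201 to 0.25) and Csnk1e (0.0147 to 0.14) kept their sign and moved by over 1.5 times. The pair differences Per1 minus Per3 and Per2 minus Per3 ran from -0.35 to 0.16 and from -0.0454 to 0.27, and Bhlhe41 minus Bhlhe40 from -0.96 to -0.79. The causes were not tested.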
